A study of Drosophila melanogaster with 24 samples.

Results

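A set of genes of the synapse and of neuronal excitability was followed in adult Drosophila melanogaster heads over age, sex and genotype. The 10 members were chosen by gene symbol and not by their values, but with earlier results of these data known. All 10 were found among the 17606 genes of the deposited table. They are the active zone genes brp and unc-13, the vesicle fusion genes Syt1, nSyb, Syx1A and Snap25, the ion channel genes cac, para and Sh, and the neuronal RNA-binding gene elav. All 10 passed the filter on low values, which kept 12493 genes.

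Total RNA of whole heads, depleted of ribosomal RNA, was sequenced in 24 libraries, each from a pool of 10 to 25 flies, with 3 libraries for each combination of age, sex and genotype. Heads were collected at 0 to 2 days after eclosion (young) or at 21 to 25 days (old). Heads labelled H3.3Adelta came from flies with no functional H3.3A gene (the null allele H3.3A2x1 over the deficiency Df(2L)Bsc110) and a wild-type H3.3B gene, and heads labelled H3.3BK36R carried the same H3.3A genotype plus a missense mutation of H3.3B that puts arginine in place of lysine 36 of the histone H3.3 protein. Both genotypes therefore lack H3.3A, and a fly with an intact H3.3A gene was not among the samples. The comparisons ask how the messages of neurons changed over the first weeks of adult life, and whether the lysine of H3.3 made a difference to them. Young male H3.3BK36R replicate 2 was left out, so that 23 libraries entered the main comparisons.

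At a chemical synapse, an action potential opens calcium channels at the active zone, and the calcium that enters drives synaptic vesicles to fuse with the membrane. Fusion is carried out by SNARE proteins, of which one sits on the vesicle and the others on the target membrane, and a calcium sensor on the vesicle times it. In the fly head these proteins work in the neurons of the brain and of the eye, which stop dividing before adulthood and have to be maintained for the life of the animal.

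The members lie on the 4 major chromosome arms outside X as well as on X and 4. In the dm6 assembly, Syt1 lies on 2L (2772327 to 2799979), nSyb on 3L (1630348 to 1637752), Snap25 also on 3L (24074180 to 24299205), Syx1A on 3R (24101600 to 24105763) and unc-13 on chromosome 4 (867824 to 912331). The X chromosome carries cac (11931280 to 11985087), para (16455027 to 16533096), Sh (17924307 to 18063247) and elav (509235 to 523226), which makes 4 of 10 members X-linked against 16.2% of the tested genes. brp lies on 2R. The genes are long. Their exons cover a median of 11.3 kb, against 1.89 kb for all tested genes, and 6 of the 10 exceed 8 kb, as 3.96% of the tested genes do. At the extremes are Snap25, with 2.28 kb of exon in a gene of 225 kb, and Sh, with 22.8 kb of exon. Exons of Syx1A overlap those of eIF4EHP on the same strand, elav shares exons with lncRNA:enrr on its own strand and with arg on the other, and unc-13 is overlapped by 3 antisense RNAs. The sources used here do not state the strand setting of the counting beyond a label, forStrand, on the deposited values. Reads of these overlaps therefore cannot be assigned with certainty.

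All members were abundant, between the 91.6 and the 99.7 percentile of mean expression among the tested genes. Per kilobase of exon, the vesicle SNARE nSyb stood first, with a median over the 23 libraries of 11411 normalized counts per kb (8039 to 14458). The calcium sensor Syt1 followed at 4924 per kb and the plasma membrane SNARE Syx1A at 3733 per kb. The voltage-gated sodium channel para had 2944 per kb, Snap25 2534, the potassium channel Sh 2476 and brp 2416. unc-13 had 2006 per kb, the calcium channel cac 1698 and elav, the lowest, 869. The ranges over libraries of all neighbours in this order overlapped. For cac and elav this was only through young male H3.3BK36R replicate 3, where cac had 589 per kb. In the other libraries cac had 1242 per kb or more, and elav reached 959. These ranges pool ages and sexes and do not compare genes within a library. elav encodes an RNA-binding protein found in neurons and commonly used to mark them.

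Libraries held between 21263006 and 42763126 reads on genes, from 23231263 in H3.3Adelta and from 21263006 to 28285665 in H3.3BK36R. The male-specific RNA roX1 separated the sexes, at 39681 normalized counts or more in males and 3195 or less in females. His3.3A, whose null allele all flies carried, had 270 to 525 normalized counts, and His3.3B 18412 to 26536. Of markers of the head and of neurons, the photoreceptor opsin gene ninaE had 423373 to 1024680 normalized counts and elav 5334 to 10276. Replicates were labelled as separate samples, and the pooled flies behind a library cannot be separated. As no molecular identifiers were counted, reads do not stand for independent molecules.

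One of the 23 libraries stood apart in every member, and results that rest on it are given with and without it. In young male H3.3BK36R replicate 3, all 10 members were below all 4 of the other young male libraries, where 26.6% of the tested genes were. Sh, which forms a fast potassium channel, had 10437 normalized counts there, against 68507 in replicate 1 of the same group and 71529 to 74346 in young male H3.3Adelta. para had 9914, against 64680 in replicate 1 and 60482 to 62719 in young male H3.3Adelta. These are 14.6% and 15.8% of the geometric mean of the other 4 young male libraries. The shortest members were least reduced, nSyb to 66.9% and Snap25 to 76.6%, but Syx1A, of nearly the same exonic length as nSyb, was at 36.8%. elav was at 55.2%.

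The dependence on length was not restricted to the members. Over 12434 tested genes with a known exonic length, the median log2 difference of this library from the other young male libraries fell from 0.28 in genes under 1 kb to -0.27 between 4 and 8 kb and -0.63 over 8 kb. In the other libraries the median over 8 kb stayed between -0.19 and 0.19, but the genotypes lay apart in females. It was 0.02 to 0.08 in young and 0.04 to 0.15 in old H3.3Adelta females. In H3.3BK36R females it was -0.06 to -0.04 in young and -0.19 to -0.03 in old ones. Old males overlapped, at -0.11 to 0.14 in H3.3Adelta and -0.06 to -0.02 in H3.3BK36R. Young male H3.3BK36R replicate 3 had 28285665 reads on genes, so its depth was not low. Its yolk protein gene Yp1, however, had 56504 normalized counts where replicate 1 had 1271. Glial marker genes together had 116667 normalized counts there and 117256 in replicate 1, and the photoreceptor markers 961527 and 1080550. The part of RNA quality or of tissue makeup in the low values was not tested.

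**Figure D1:**
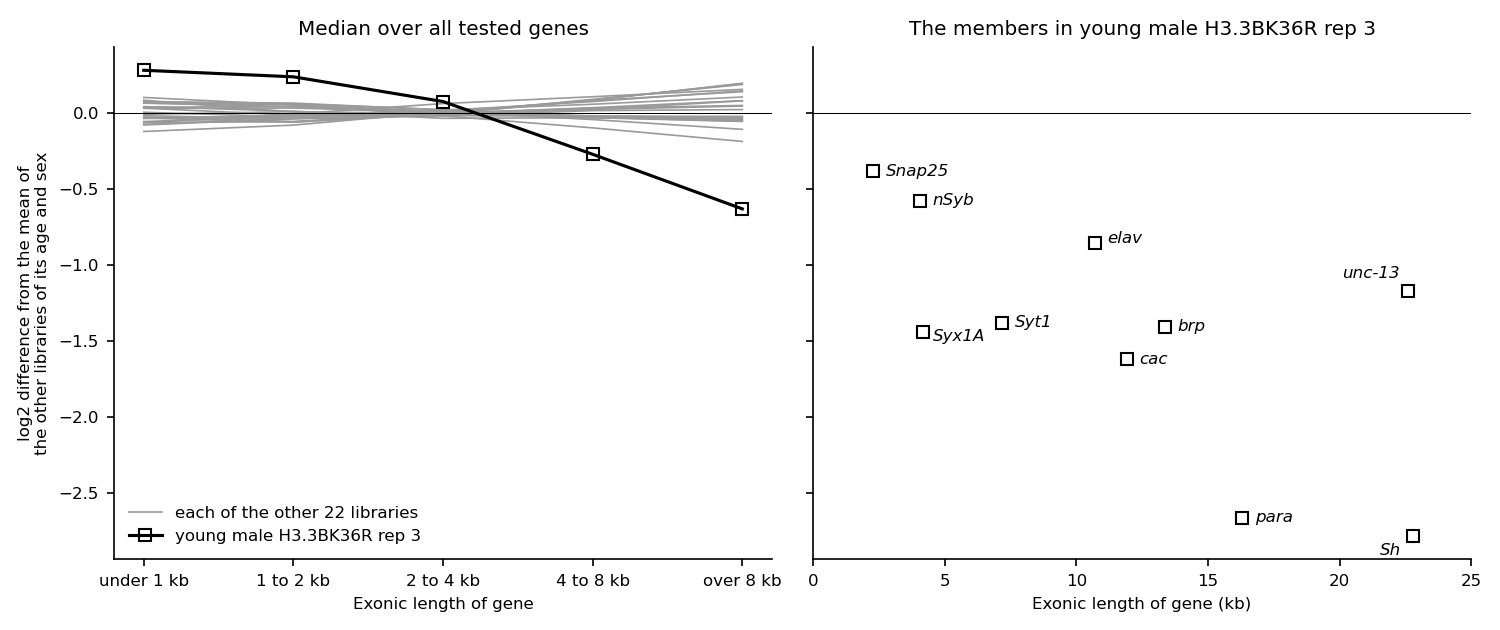
Young male H3.3BK36R replicate 3 by exonic length. Left: median log2 difference of each of the 23 libraries from the mean of the other libraries of its age and sex, over all tested genes in 5 length classes; the black line falls from 0.28 to -0.63 while the 22 grey lines stay near 0. Right: the same difference for each member in that library (y) against its exonic length in kb (x), with Snap25 the least and Sh the most reduced.

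**Figure D2:**
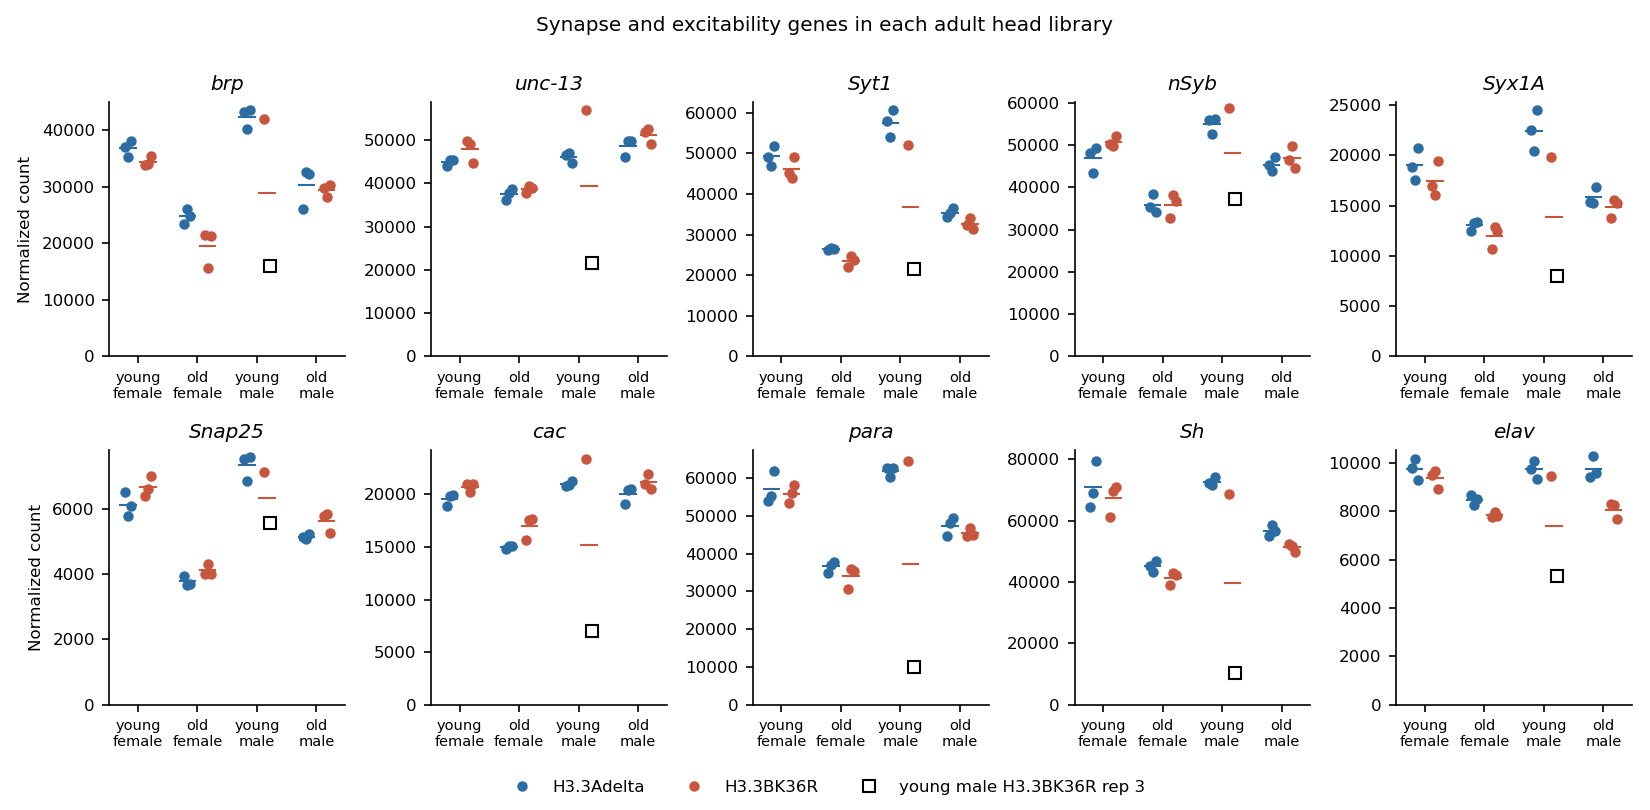
Normalized counts (y) of the 10 members in each of the 23 libraries, by age and sex on the x axis and genotype in colour, with a short line at the mean of each group. The open square is young male H3.3BK36R replicate 3, which lies below all other young male libraries in every panel and pulls down the mean of its group of 2.

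With age, synaptic messages became less abundant. In H3.3Adelta heads, 5 of the 10 members were lower in old than in young flies (limma, adjusted p below 0.05), all 5 of them components of the active zone or of the fusion machinery: Syt1, Snap25, brp, Syx1A and nSyb. Of all tested genes 20.4% were called lower and 41.9% were called in either direction in this comparison. All 10 members had negative fold changes, with a median of -0.51 on the log2 scale where the median of all tested genes was 0.04. Without young male H3.3BK36R replicate 3, which shares in the estimate of the spread, para, Sh and cac were called too, for 8 of 10 lower, against 23.1% of the genes tested there. Fold changes of H3.3Adelta heads were the same in both fits, since that library is not among them.

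Syt1, the calcium sensor of fast release, showed the largest fall. In females it had 49104, 46940 and 51886 normalized counts in the young and 26143, 26624 and 26525 in the old H3.3Adelta libraries. In males the values were 57936, 54077 and 60679 in the young and 34380, 35407 and 36502 in the old. The ages did not overlap in either sex, and the old female libraries were the lowest. The log2 fold change of Syt1 was -0.80 (standard error, SE, 0.16, adjusted p = 0.000424 from limma).

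Snap25, a SNARE of the plasma membrane, had 6543, 5784 and 6109 normalized counts in young and 3955, 3684 and 3716 in old H3.3Adelta females. In males it had 7555, 6877 and 7617 when young and 5158, 5086 and 5229 when old. Here, too, each old library was below each young library of its sex. The log2 fold change was -0.60 (SE 0.08, adjusted p = 4.72e-06), the smallest adjusted p of the members.

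The cytomatrix protein gene brp, whose product builds the dense projection at the active zone, had 35350 to 38054 normalized counts in young and 23484 to 26023 in old H3.3Adelta females. In males it had 40246 to 43611 and 26113 to 32717. Its log2 fold change was -0.53 (SE 0.18, adjusted p = 0.0196 from limma). For Syx1A, the partner SNARE of Snap25, it was -0.52 (adjusted p = 0.0107), and for nSyb -0.33 (adjusted p = 0.014).

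Among the channel genes, para and Sh had fold changes close to that of brp but far wider errors in the fit of all 23 libraries. para had 53952 to 61820 normalized counts in young and 34951 to 37878 in old H3.3Adelta females, and 60482 to 62719 and 44716 to 49553 in males. Its log2 fold change of -0.51 had a standard error of 0.30 (adjusted p = 0.181 from limma) with the outlying library in the fit and 0.06 (adjusted p = 7.57e-07) without it. For Sh the fold change was -0.51, with standard errors of 0.31 (adjusted p = 0.201) and 0.07 (adjusted p = 2.47e-06). The ages of both genes did not overlap in either sex. The calcium channel subunit gene cac moved less, by -0.23 (adjusted p = 0.388, and 0.00129 without that library).

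The remaining members, unc-13 and elav, were not called in H3.3Adelta heads in either of these fits. unc-13, which primes vesicles for fusion, had 44708, 46424 and 46906 normalized counts in young and 46174, 49719 and 49790 in old males. In females it had 43891 to 45337 when young and 36236 to 38760 when old. elav had 9356 to 10093 in young and 9418 to 10276 in old males, and 9311 to 10154 and 8256 to 8682 in females. The ages overlapped in males for these 2 genes and were separate in females. Each of the other 8 members was lower in every old than in every young library in both sexes, as 16.2% of the tested genes were.

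Within the female libraries fitted alone, a choice made after the outlying library had been seen, all 10 members were called lower in old H3.3Adelta heads, against 16.7% of the genes tested there. unc-13 then had a log2 fold change of -0.25 (SE 0.07, adjusted p = 0.0118 from limma) and elav -0.20 (SE 0.06, adjusted p = 0.0241).

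In H3.3BK36R heads, synaptic messages were also lower in old flies, but how many members were called depended on 1 library. With all 23 libraries, 3 of 10 members were called lower with age, namely Snap25, Syt1 and nSyb, where 19.9% of all tested genes were called lower and 40.4% in either direction. Without young male H3.3BK36R replicate 3, all 10 were called lower, against 22.5% of the genes tested there, and the median log2 fold change of the members moved from -0.14 to -0.54. With the female libraries alone, in which that library has no part, all 10 were also called lower, against 19.9%, with a median of -0.62. Without replicate 3, the young males of this genotype are represented by 1 library, which the fit assumes to vary as the other libraries do.

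In H3.3BK36R females, Syt1 had 45274, 44000 and 49121 normalized counts when young and 22107, 24819 and 23739 when old. brp had 33808, 34090 and 35465 when young and 21543, 15640 and 21366 when old. para had 53420, 56074 and 58150 when young and 30607, 35891 and 35425 when old. No old female library reached a young one in these or in any other member, as in 23.5% of the tested genes. In the females alone, the log2 fold changes were -0.97 for Syt1 (SE 0.07, adjusted p = 3.97e-06 from limma), -0.84 for brp (SE 0.11, adjusted p = 0.000143) and -0.72 for para (SE 0.08, adjusted p = 6.84e-05).

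In H3.3BK36R males, the young libraries of Syt1 had 52099 in replicate 1 and 21526 in replicate 3, and the old ones 32344, 34106 and 31451. Replicate 1 was thus above, and replicate 3 below, every old male library. For all 10 members replicate 1 was above all 3 old male libraries, as for 35% of the tested genes, and no member had both young libraries above all old ones. Both cac and unc-13 changed direction with the outlying library. cac had a log2 fold change of 0.14 with age in H3.3BK36R heads over 23 libraries (adjusted p = 0.643 from limma) and -0.24 without it (adjusted p = 0.00236), and unc-13 of 0.06 (adjusted p = 0.821) and -0.24 (adjusted p = 0.00711).

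**Figure D3:**
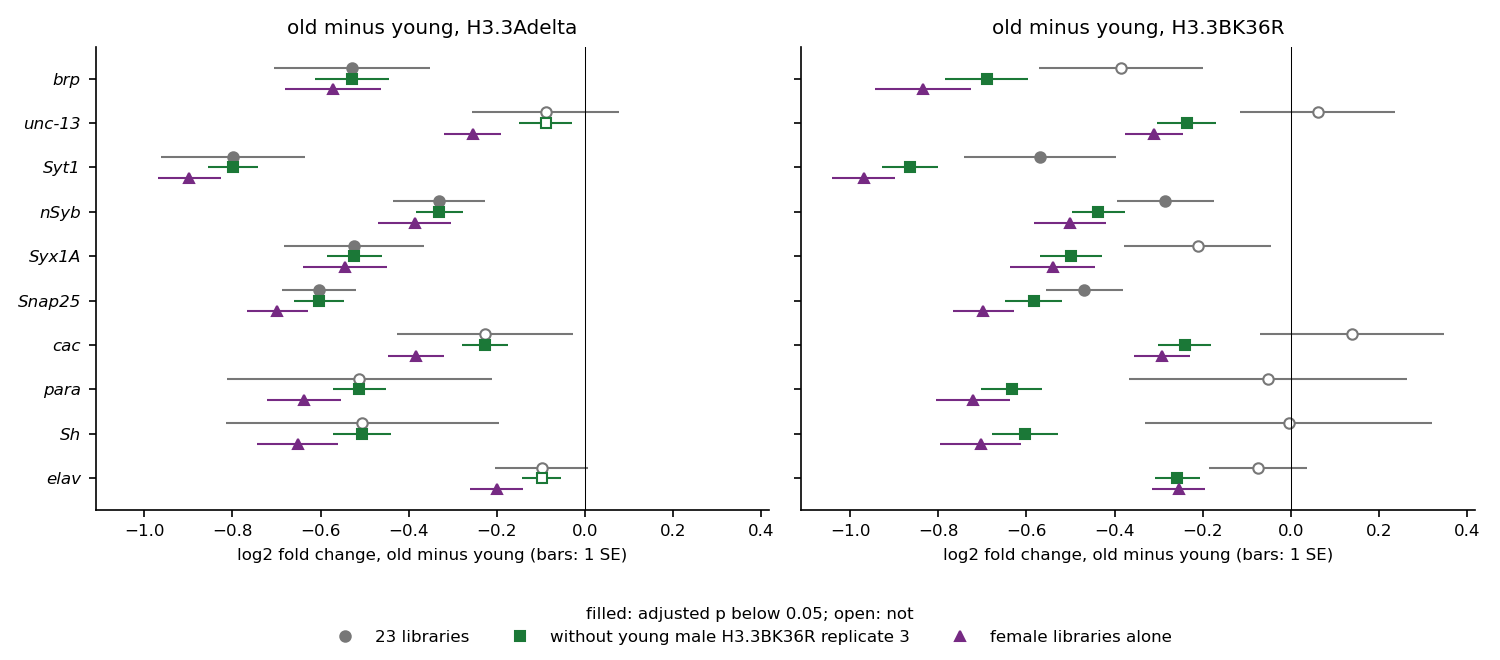
log2 fold change between old and young heads (x) of the 10 members (y) in each genotype, with bars of 1 standard error, from the fit of 23 libraries, without young male H3.3BK36R replicate 3 and from the female libraries alone. Filled symbols have an adjusted p below 0.05: 5, 8 and 10 members in H3.3Adelta and 3, 10 and 10 in H3.3BK36R, all to the left of 0.

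The 4 fusion genes were also set against elav, as ratios of normalized counts and without a test. The ratio of Syt1 to elav normalized counts in H3.3Adelta females was 4.62 to 5.57 in young and 3.01 to 3.22 in old heads, and in males 5.36 to 6.49 and 3.45 to 3.80. For Snap25 the ratio was 0.570 to 0.668 in young females and 0.436 to 0.456 in old ones. In H3.3Adelta all 4 ratios were lower in every old than in every young male library, and 3 of 4 were in females, where nSyb overlapped with 4.27 to 5.31 in young and up to 4.64 in old heads. In H3.3BK36R this held for all 4 in females and for nSyb and Snap25 in males. In those males the young range of Syt1, 4.04 to 5.50 with the outlying library, overlapped the old range of 3.91 to 4.14, and Syx1A overlapped too. In bulk heads, fewer neurons and less RNA per neuron cannot be told apart. Markers of other cell types were compared with age as well. Of all tested genes 20.4% were called lower with age in H3.3Adelta and 19.9% in H3.3BK36R. Of 18 muscle marker genes, 15 were called lower in old H3.3Adelta and 12 in old H3.3BK36R heads, 16 of the 18 had negative fold changes in each genotype, and their summed level was 134888 to 218002 normalized counts in old and 193025 to 578063 in young libraries. Of 15 glial markers, 9 were called lower with age in each genotype, with sums of 53947 to 75330 in old and 66797 to 135248 in young libraries, and the glial gene repo was present throughout. Photoreceptor markers, which are also neuronal, summed to more in old than in young H3.3Adelta heads, at 1270110 to 1518720 against 964296 to 1200420 normalized counts, although 5 of the 12 were called lower and 3 higher. Most of these sums was the single gene ninaE, at 843126 to 1024680 in old and 481810 to 694767 in young H3.3Adelta libraries. In H3.3BK36R the sums of the photoreceptor markers overlapped, at 939500 to 1201760 in old and 907738 to 1134340 in young libraries, with 8 of 12 called lower and 1 higher. The part of these shifts in the values of the members was not tested.

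The age difference was also compared between the genotypes. No member was called in the interaction of age and genotype, with or without young male H3.3BK36R replicate 3, where 2.22% and 2.89% of the tested genes were. At an unadjusted p below 0.05 none and 1 of the members were counted, as were 13.2% and 15.7% of the tested genes, and edgeR and DESeq2 also called 0 of 10. Without that library the interaction of Syt1 was -0.07 (SE 0.09) and that of brp -0.16 (SE 0.13), so that differences of this size in the ageing of the genotypes lie within the error.

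Old females had lower levels of synaptic messages than old males. In the fit of 23 libraries 5 of 10 members were called lower in old females, brp, unc-13, Syt1, nSyb and Snap25, where 15.2% of the tested genes were called lower and 30.3% in either direction. Without young male H3.3BK36R replicate 3, and also with the old libraries alone, all 10 were called lower, against 18.2% and 19% of the genes tested there. The fold changes were the same in these fits, with a median of -0.38 on the log2 scale against 0.00 for all tested genes. The count was 3 without old female H3.3Adelta replicate 1 or 3, old female H3.3BK36R replicate 2, old male H3.3Adelta replicate 2 or 3 or old male H3.3BK36R replicate 1 or 3.

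Snap25 had 3955, 3684 and 3716 normalized counts in old female and 5158, 5086 and 5229 in old male H3.3Adelta heads. In H3.3BK36R it had 4019, 4326 and 4026 in old females and 5782, 5856 and 5258 in old males. The sexes did not overlap in either genotype. The log2 fold change between the sexes was -0.45 (SE 0.06, adjusted p = 1.56e-05 from limma).

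The sensor Syt1 differed by the same amount, -0.45 (SE 0.13, adjusted p = 0.016), with 22107 to 26624 normalized counts in the 6 old female and 31451 to 36502 in the 6 old male libraries. unc-13 had 36236 to 39249 in old females and 46174 to 52546 in old males, a log2 fold change of -0.39 (SE 0.14, adjusted p = 0.0483). cac had 14811 to 17649 in old females and 19129 to 21904 in old males, with -0.37 (adjusted p = 0.11 with all 23 libraries and 1.02e-06 without the outlying one). These 3 genes were thus lower in every old female library, whichever the genotype.

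In both genotypes, 9 members were lower in every old female than in every old male library of the same genotype, as 12% of the tested genes were. elav was the exception. It was lower in old females of H3.3Adelta (8256, 8682 and 8522 against 9418, 10276 and 9597), while in H3.3BK36R females had 7749, 7989 and 7786 and males 8282, 8245 and 7661. Its sex difference over both genotypes was -0.12 (adjusted p = 0.351 from limma with 23 libraries and 0.0228 without the outlying one), the smallest of the members. The 4 X-linked members had fold changes of -0.40 (para), -0.37 (cac), -0.32 (Sh) and -0.12 (elav) between the sexes, and the other members lay between -0.45 and -0.29.

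Transcripts of the fat body, the storage and secretory tissue that also lies in the head, differed between the sexes in the other direction. Of 12 fat body markers 7 were called higher in old females and none lower. Of all tested genes 30.3% were called in either direction and 15.2% lower. The summed level of these markers was 2106460 to 4769880 normalized counts in old female and 260441 to 828623 in old male libraries. The list holds the yolk protein genes Yp1, Yp2 and Yp3. Yp1 alone had 908221 to 1912860 in old female and 2369 to 253930 in old male libraries. Glial and muscle markers also lay apart between the sexes. The glial sums were 53947 to 70779 in old female and 70871 to 75330 in old male libraries, with 6 of 15 called lower and 2 higher in females. The muscle sums were higher in old females, at 184813 to 218002 against 134888 to 175101, with none of 18 markers called by limma and 4 at an unadjusted p below 0.05. Of the photoreceptor markers, 6 of 12 were called lower in old females. The part of these shifts in the members' sex difference was not tested.

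In young heads no member was called between the sexes with 23 libraries, where 8.19% of the tested genes were. At an unadjusted p below 0.05 there was 1, where 21.1% of the tested genes were, and edgeR and DESeq2 called 0 of 10. With young male H3.3BK36R replicate 3 left out, 3 members were called lower in young females: Syt1 at -0.20 (adjusted p = 0.0292 from limma), nSyb at -0.22 (adjusted p = 0.0308) and Snap25 at -0.18 (adjusted p = 0.0492), where 5.05% of the genes tested there were called lower. With the 23 libraries the value of Syt1 was 0.12, so that its direction turned with this library. In H3.3Adelta, with 3 libraries on each side, Snap25 had 6543, 5784 and 6109 normalized counts in young females and 7555, 6877 and 7617 in young males, which did not overlap. The same held for brp, Syt1, nSyb and cac, 5 of 10 members, where 14.7% of the tested genes had every female below every male library.

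The difference between females and males was more negative in old than in young heads in all 10 members, but the difference of these differences was not past the threshold. In the interaction of sex and age, 0 of 10 members were called by limma with 23 libraries, where 0.728% of the tested genes were. At an unadjusted p below 0.05 there were 9, against 18.7% of the tested genes. DESeq2 called 1, Snap25, and edgeR none. With no share of all genes set beside that DESeq2 call, it is not read as a result about the members. Without young male H3.3BK36R replicate 3, none was called (0.0401% of the genes tested there were) and 6 had an unadjusted p below 0.05, against 11.7% of those genes, with a median difference of -0.23. The interaction of sex and genotype also called none, where 0.048% of the tested genes were. At an unadjusted p below 0.05 it counted 1, against 5.2% of the tested genes, and edgeR and DESeq2 called 0. Where young male H3.3BK36R replicate 1 was left out in its place, the outlying library stood alone for its group. Calls of members in these interactions and between the sexes in young heads then rested on that library. They are not read as a result about the members.

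Between the genotypes, differences were small. In young heads no member was called (9.21% of the tested genes were), 2 had an unadjusted p below 0.05 (23.7% of the tested genes did), and edgeR and DESeq2 called 0 of 10. The negative median of -0.29 went to 0.00 without young male H3.3BK36R replicate 3. A fit of the 8 groups gave 1 call, Syx1A, at -0.48 (adjusted p = 0.0439 from limma). It includes the outlying library, and no share of all genes is set beside it. The call is not read as a result about the members. Within young males Syt1 and Syx1A were called, at -0.78 (adjusted p = 0.0414) and -0.83 (adjusted p = 0.038), where 2.75% of the tested genes were called lower. That contrast sets 3 libraries against 2, of which 1 is the outlying one. In young females, where all 6 libraries stand, no member was called in the fit of females alone (2.89% of the genes tested there were), and the log2 fold changes lay between -0.13 and 0.12.

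In old heads no member was called with 23 libraries either, where 18.6% of the tested genes were, none had an unadjusted p below 0.05 (30.7% of the tested genes did), and edgeR and DESeq2 called 0 of 10. The values per library nevertheless lay apart for 5 members, in the same direction in both sexes. elav had 8682, 8256 and 8522 normalized counts in old female H3.3Adelta heads and 7749, 7989 and 7786 in old female H3.3BK36R heads. In old males it had 9418, 10276 and 9597 against 8282, 8245 and 7661. Every H3.3BK36R library was below every H3.3Adelta library of its sex. The log2 fold change of elav was -0.19, with a standard error of 0.10 (adjusted p = 0.218 from limma) over 23 libraries and 0.04 (adjusted p = 0.00301) without the outlying library. It was the only member called there, where 12.1% of the genes tested were called lower.

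Syt1 and Sh were also lower in every old H3.3BK36R library of both sexes. Syt1 had 22107 to 24819 against 26143 to 26624 normalized counts in females and 31451 to 34106 against 34380 to 36502 in males. Sh had 38820 to 42752 against 43242 to 46701 in females and 49760 to 52306 against 55020 to 58520 in males. With the old libraries alone, a choice made after the data had been seen, 3 members were called lower in H3.3BK36R, elav at -0.19 (adjusted p = 0.00467 from limma), Syt1 at -0.14 (adjusted p = 0.0333) and Sh at -0.13 (adjusted p = 0.0485), where 13% of the genes tested there were. Separation of this kind in both sexes was found in 7.59% of the tested genes towards lower values.

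Snap25 and cac lay the other way. Snap25 had 4019 to 4326 normalized counts in old H3.3BK36R females, above the 3684 to 3955 of H3.3Adelta, and 5258 to 5856 in males, above 5086 to 5229. cac had 15677 to 17649 against 14811 to 15095 in females and 20559 to 21904 against 19129 to 20507 in males. In both sexes every H3.3BK36R library was above every H3.3Adelta library, as for 7.36% of the tested genes. The log2 fold changes were 0.12 for Snap25 and 0.13 for cac, and neither was called, with adjusted p of 0.0555 and 0.0546 from limma in the old libraries alone. brp was lower in old H3.3BK36R females (15640 to 21543 against 23484 to 26023) and overlapped in males.

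**Figure D4:**
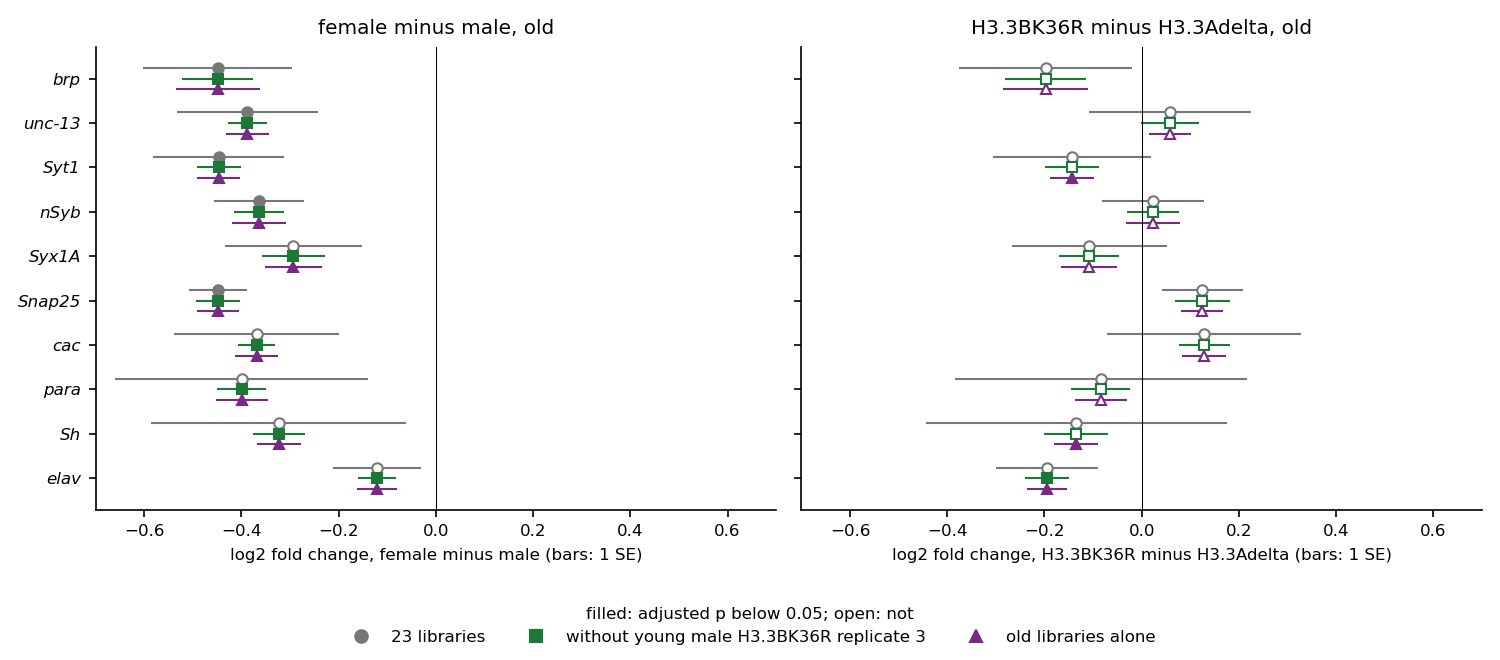
log2 fold changes of the 10 members (y) in old heads, with bars of 1 standard error: female minus male on the left, H3.3BK36R minus H3.3Adelta on the right (x). Filled symbols have an adjusted p below 0.05; on the left 5, 10 and 10 members do in the 3 library sets, and on the right 0, 1 and 3.

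The genotypes also differed in photoreceptor markers, which were summed at 939500 to 1201760 normalized counts in old H3.3BK36R and 1270110 to 1518720 in old H3.3Adelta libraries. Of the 12, 5 were called lower and 1 higher in old H3.3BK36R heads, against 8.59% and 10% of the tested genes. The part of this in the difference of elav, which photoreceptor neurons express, was not tested. The median log2 difference of genes with over 8 kb of exon was also lower in each old female H3.3BK36R than in each old female H3.3Adelta library. Old males overlapped in it, and its part in the genotype differences of the members was not tested. The comparisons of age, sex and genotype were made on the same libraries and are not independent of each other.

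Many of the other neuronal genes were called lower with age too. The 7 lists of such genes held 113 tested genes. With age in H3.3Adelta heads, 64 of 113 were called lower, against 20.4% of all tested genes, and 2 higher, with a median log2 fold change of -0.33. In H3.3BK36R heads 56 were called lower, against 19.9%, and 4 higher, with a median of -0.28. Leaving out young male H3.3BK36R replicate 3 gave 94 lower, against 22.5%, and 3 higher, with a median of -0.45.

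Among the 10 sodium channel and channel complex genes beside para, 8 were called lower with age in H3.3Adelta and 7 in H3.3BK36R heads, and none higher. In H3.3BK36R the largest fall was that of unc80, which belongs to the complex of the leak channel, at -0.87 (adjusted p = 5.94e-05 from limma). Of 15 tested endocytosis genes, 12 fell in each genotype. AP-2mu, a subunit of the clathrin adaptor that retrieves vesicle membrane, fell by 0.91 on the log2 scale in H3.3Adelta (adjusted p = 1.27e-08). Of the 38 release genes, 22 fell and 1 rose in H3.3Adelta, and 24 fell and 2 rose in H3.3BK36R. comt, which encodes the NSF ATPase that takes SNARE complexes apart, fell by 1.01 in H3.3BK36R (adjusted p = 6.82e-12).

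The largest falls in H3.3Adelta were those of a beta and the alpha subunit of the sodium pump, which restores the ion gradients of neurons, nrv3 at -1.07 (adjusted p = 5.23e-05 from limma) and Atpalpha at -1.03 (adjusted p = 1.01e-05). Of the potassium channel genes 8 of 19 fell in H3.3Adelta and 5 in H3.3BK36R. Of 4 calcium channel genes 2 and 1 fell, and of 14 RNA-binding genes 3 and 1 fell and 1 rose in each genotype. Set against the 20.4% and 19.9% of all tested genes called lower, the RNA-binding genes were near that share in H3.3Adelta and below it in H3.3BK36R, where the potassium channel genes were near it. These counts depended on the outlying library. Leaving it out gave 8 and 11 RNA-binding genes, 11 and 15 potassium channel genes and 3 and 4 calcium channel genes that were called lower, against 23.1% and 22.5% of the genes tested there. Genes that rose were few. Rbp9, a neuronal relative of elav, rose by 0.26 in H3.3Adelta (adjusted p = 0.0361), as did Syx18, a SNARE of the endoplasmic reticulum, by 0.39 (adjusted p = 0.0133). In H3.3BK36R, Syb, a synaptobrevin not restricted to neurons, rose by 0.42 (adjusted p = 0.00126), bru1 by 0.32 (adjusted p = 0.000908) and the mechanosensory channel gene nompC by 0.43 (adjusted p = 0.0305, and 0.0819 without the outlying library).

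**Figure D5:**
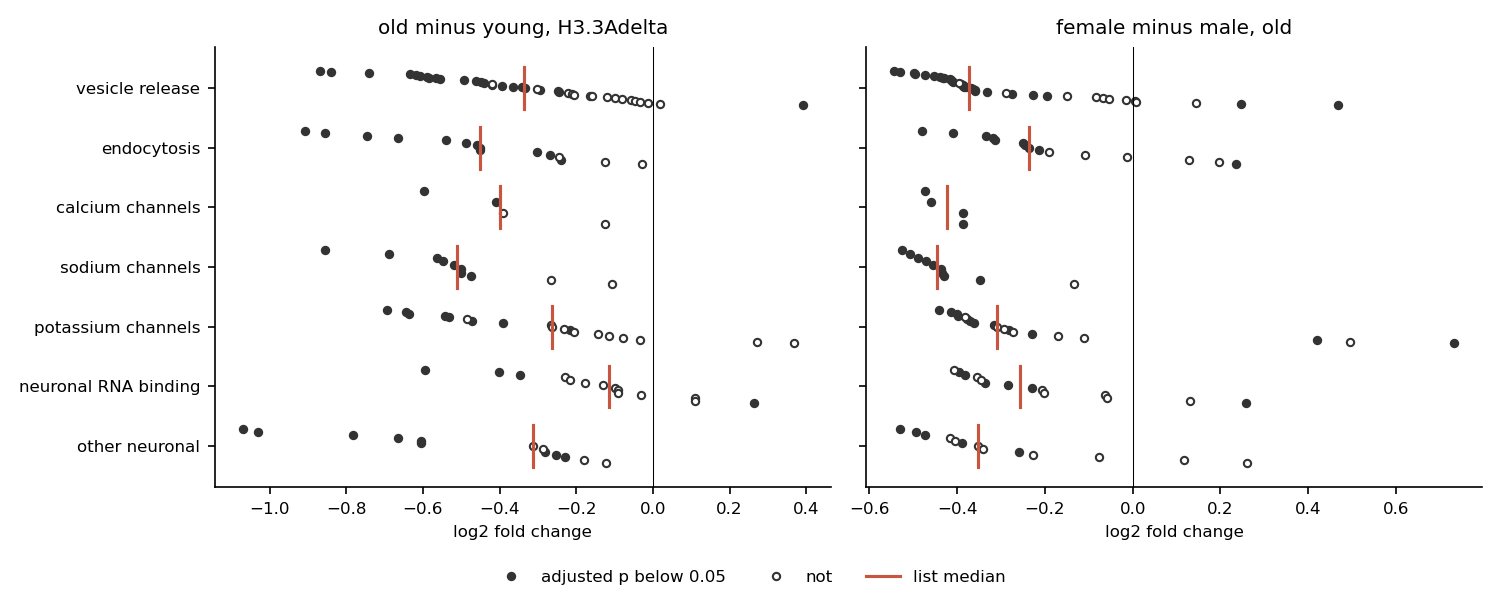
log2 fold changes (x) of the 113 tested genes of the 7 other neuronal lists (y), each point 1 gene, with age in H3.3Adelta on the left and between the sexes in old heads on the right, from the fit of 23 libraries. Filled points have an adjusted p below 0.05 and the short lines are list medians, all of which lie below 0.

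In old heads 68 of the 113 were lower in females, against 15.2% of the tested genes, and 6 higher, with a median of -0.35. Rph, which binds the vesicle GTPase Rab3, was the lowest at -0.54 (adjusted p = 7.35e-06 from limma), ahead of the axonal cytoskeleton gene futsch at -0.53 (adjusted p = 0.00823) and Cadps, a priming factor, at -0.53 (adjusted p = 0.000193). Higher in females were the leak potassium channel gene Ork1 at 0.73 (adjusted p = 6.25e-05), Syb at 0.47 (adjusted p = 6.46e-05) and Irk1 at 0.42 (adjusted p = 0.0244). In young heads 6 were lower, against 3.26% of the tested genes, and 2 higher, and without the outlying library 51 were lower, against 5.05%, and 1 higher. Irk2 and AP-2mu were the lowest in young females at -0.31 each, followed by Rop, which chaperones Syx1A, at -0.29 (adjusted p = 0.00306), and Syx4 and Nlg1 were higher at 0.48 and 0.39.

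Between the genotypes, 7 of the 113 were lower in young H3.3BK36R heads, near the 4.4% of all tested genes, and none higher. In old ones 15 were lower, against 8.59%, and 6 higher, against 10%. Leaving out the outlying library gave 44 lower in old heads, against 12.1% of the genes tested there, and 6 higher. Ork1 was the lowest at both ages, at -0.67 when young (limma, adjusted p = 0.00136) and -0.68 when old (adjusted p = 0.000329). In young heads dlg1 and Syn followed at -0.47 and -0.39. In old heads these were Sytbeta at -0.45 and Nlg1 at -0.42, while nompC at 0.73, AP-2mu at 0.39 and Syx4 at 0.37 were higher in H3.3BK36R. Without young male H3.3BK36R replicate 3, dlg1 was at -0.27 (adjusted p = 0.000437), Syn was no longer called at -0.21 (adjusted p = 0.0863), and Irk2, AP-2mu and Nlg1 were no longer called between the sexes in young heads (adjusted p = 0.113, 0.144 and 0.0861). No gene of the 113 was called by limma in the interaction of age and genotype, of sex and age or of sex and genotype with 23 libraries. Of all tested genes 2.22%, 0.728% and 0.048% were. At an unadjusted p below 0.05 there were 9, 65 and 7 of the 113, against 13.2%, 18.7% and 5.2% of the tested genes. The first count is below its share, the second above it and the third near it. Here edgeR called none, and DESeq2 called 2, 15 and 0. No share of all genes is set beside the DESeq2 counts, so they are not read as a result about these genes. Leaving out the outlying library gave 3 calls by limma in the interaction of age and genotype and none in the others. The 3 calls are near the 2.89% of the genes tested there.

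The genes stnA and stnB, whose products act in vesicle retrieval, are listed at 0 in all 24 libraries and were not tested. In the annotation both cover the same stretch of X (22980722 to 23004648), on the same strand and with the same 8332 bp of exon. Reads there cannot be told apart between them, so the zeros are not read as absence of their messages. The profile over the 23 libraries most like the mean of the members was that of Pkc98E, a protein kinase C gene, with Pearson r of 0.986, then Hr3 with 0.986 and eIF4EHP with 0.984. Without the outlying library these were 0.976, 0.978 and 0.973, and the 3 genes then ranked 31, 25 and 46 among the tested genes other than the members, so that their place at the top depended on that library. The libraries share their groups and their depth, and eIF4EHP shares exons with the member Syx1A.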

How the data were processed

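Normalized counts of adult head RNA-seq were used. The authors aligned reads to dm6 with STAR 2.7.7a, counted them on genes with featureCounts (Subread 2.0.3) and divided by DESeq2 1.34.0 size factors, per the submitters' processing notes; this deposited signal is a normalized count. The annotation release is not given in the sources used here, and the strand setting only as a label, forStrand, on the deposited values. In every library 100% of values were whole reads (tolerance 1e-06) after multiplication by a size factor. The members and gene lists were chosen with earlier results of these data known, and the lists support nothing beyond their counts.

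A gene entered the test with 10 or more normalized counts in 3 or more libraries. Values were taken as log2(normalized count + 1) and fitted with limma 3.58.1 in R 4.3.3, with a trended prior variance, two-sided, with Benjamini-Hochberg adjustment over 12493 genes and a threshold of 0.05. Fold changes on this scale understate changes of low genes. Age and genotype contrasts came from 4 groups with sex as a covariate, and sex contrasts from 8 groups. Positions and exonic lengths came from the Ensembl annotation of the same assembly. The study left out 1 outlier that its methods do not name. Here young male H3.3BK36R replicate 2 was left out, as set in advance. This need not be the library that the study left out. The male reproductive markers of replicate 2 stood apart, but they were not used here to choose it. Replicates differed by more than counting error.

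From the other neuronal lists, up to 3 genes with the largest increase and 3 with the largest decrease among those called are named in each comparison, and outside them the 3 genes most correlated with the members' mean profile. Alternatives were pseudocounts of 0.5 and 5, no filter, a minimum of 50, upper-quartile scaling, edgeR 4.0.16 and DESeq2 1.42.0 on the recovered reads, library weights, all 24 libraries, a replicate block, no sex covariate, 8 groups, and each library left out. Fits of the female, the H3.3Adelta and the old libraries alone were added after the data had been seen. edgeR called 5184 and DESeq2 5509 genes between old and young H3.3Adelta heads, where limma called 5240. The steps were tested on simulated data. Other steps used Python 3.11.15, numpy 2.4.6, pandas 2.3.3 and matplotlib 3.10.9.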

Additional observations from a re-analysis of the deposited data

Results flagged for a closer look

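In 5 members, 1 library lay far below the others among the 5 young H3.3BK36R libraries, and in each case it was young male replicate 3. The gap to the nearest library, as a share of the whole range, was 0.827 for elav, 0.735 for Syt1, 0.808 for cac, 0.794 for para and 0.838 for Sh. Their normalized counts there were 5334, 21526, 7019, 9914 and 10437. In all, 40 groups of libraries were looked at. A chance rate of about 1 in 20 holds for independent values from a single population. These groups pool females and males and use the same libraries for each member, so that rate need not apply. The 5 flags share a library.

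A signal outside the comparisons was found in young male H3.3BK36R replicate 2, the library left out. Marker genes of male reproductive tissue summed to 68658 normalized counts there and to at most 641 in any of the others. The members lay between the values of replicates 3 and 1 in it, with 30378 normalized counts of brp, 7119 of elav and 56835 of Sh.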

How the results depend on the processing

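The number of members called depended on the library set. Shares of all genes called are given above for some fits, such as those of the females or the old libraries alone. For the other fits of this section no share is set beside the counts. Those counts show how the calls moved and are not read as results about the members. With age in H3.3Adelta heads, 5 of 10 became 8 with the H3.3Adelta libraries alone and 10 with the females alone, and leaving out each library gave 5 to 8. With age in H3.3BK36R, 3 became 10 with the females alone and 8 with library weights, and 2 to 10 leaving out each library. In the females alone, unc-13 was at -0.31 and cac at -0.29 on the log2 scale; leaving out each library gave -0.24 to 0.16 and -0.24 to 0.26, and Syt1 between the sexes in young heads -0.20 to 0.44.

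Between the genotypes, the young count of 0 became 1 in the fit of 8 groups, and the old count of 0 became 1 with library weights and 3 with the old libraries alone (0 to 1 leaving out each library). Between the sexes, the young count of 0 became 1 in H3.3Adelta alone (0 to 8), and the old count of 5 became 10 in H3.3Adelta alone and in the old libraries alone, and 8 with library weights (3 to 10). The 3 resulted from leaving out old female H3.3Adelta replicate 1 or 3, old female H3.3BK36R replicate 2, old male H3.3Adelta replicate 2 or 3 or old male H3.3BK36R replicate 1 or 3. In the interaction of sex and age, DESeq2, all 24 libraries, a minimum of 50 and upper-quartile scaling each gave 1 (0 to 10), and that of sex and genotype gave 0 to 10. Among the fits that leave out a library, each 10, and the 8 between young sexes, came without young male H3.3BK36R replicate 1 or 3. Without replicate 1 the outlying replicate 3 stands alone for its group, so the counts of that fit are not read as a result about the members.

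Of 3180 alternatives for single members, 2949 kept direction and side of the threshold, 87 changed sign without being called in either fit, 45 lost and 94 gained a call, and 5 turned a called direction. The replicate block changed 1 call of a member, nSyb with age in H3.3BK36R, with counts of 5, 2, 0, 0, 0, 0, 5, 0 and 0 over the 9 comparisons. Of 77 pairs of libraries with the same number 35 correlated above 0.1 (mean 0.101, against -0.049 for other numbers). As not every pair did, the numbers were not taken to pair the libraries. The causes were not tested.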
